A study of Mus musculus with 13 samples.

Results

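The genes described here are 51 mouse genes of the interferon response, followed through hematopoietic stem cells (HSCs) that lacked or carried the kinase MEK1 and came from mice given 5-fluorouracil (5-FU) or left untreated. They were named in a list of known interferon receptors, signalling factors and interferon-induced genes, and taken by matching the gene identifiers of the deposited expression table to mouse gene symbols. All 51 were found among the 13201 genes of the table. The 13 libraries form 4 groups: MEK1-deficient (KO) HSCs after 5-FU (n = 3, libraries A5, A6 and A8), wild-type (WT) HSCs after 5-FU (n = 4, A2, A3, A4 and D4), KO HSCs from untreated mice (n = 3, D4, D5 and D6) and WT HSCs from untreated mice (n = 3, D1, D2 and D3). MEK1 is encoded by Map2k1. It activates ERK in the RAF-MEK-ERK cascade, as does its relative MEK2. 5-FU is a pyrimidine analogue that kills dividing blood progenitors and thereby drives HSCs into cycle. Each library was made by Smart-seq2 from 100 cells sorted out of bone marrow. How the deletion was made, the strain, age and sex of the mice, and the dose and time of 5-FU are not stated in the labels. Nothing in the labels ties the libraries of a group to separate mice, so each p-value reflects library-to-library spread, which may be technical.

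Interferons signal through cell-surface receptors. Type I interferons bind Ifnar1 with Ifnar2 and interferon gamma binds Ifngr1 with Ifngr2; JAK kinases then phosphorylate STAT proteins. A complex that holds STAT2 and IRF9 binds the interferon-stimulated response element after type I interferon, the gamma-activated site is the element used after interferon gamma, and the target genes encode antiviral and antibacterial effectors. In HSCs, acute interferon exposure is known to push quiescent cells into cycle, and a basal level of interferon-stimulated genes is a known feature of stem cells.

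Values are normalized counts, that is, reads per gene divided by a size factor for the library, recovered from the deposited log2-scale values. Read totals ran from 11416753 to 25380570 in 12 libraries and reached 45384866 in untreated WT D1, which the labels place on both flowcells. The series' design text counts 1 technical replicate with the untreated WT samples; D1 was used as 1 library. Differences (log2) and their standard errors come from the deposited scale, which compresses low counts and so understates the change of weakly expressed genes. A gene was called where the Benjamini-Hochberg adjusted p of limma, over 12846 genes, was below 0.05. Map2k1, the targeted gene, had 328, 459.9 and 304 normalized counts in KO HSCs after 5-FU and 604, 1634, 584 and 1573 in WT HSCs after 5-FU. It had 611, 749.8 and 545 in untreated KO HSCs and 905, 1116 and 1766 in untreated WT HSCs. KO libraries were below WT libraries in both conditions, at 33.1% of the WT mean after 5-FU (exact permutation test over libraries, two-sided p = 0.0857, smallest possible 0.0286) and 50.3% untreated (exact permutation p = 0.1, the smallest possible). By limma, Map2k1 was called lower in KO after 5-FU (log2 difference -0.96, SE 0.277, adjusted p = 0.0339) and was not called untreated (-0.69, SE 0.296, adjusted p = 0.46). WT libraries A3 and D4 after 5-FU were more alike than any other pair within a group: their median difference over the members was 0.165 on the log2 scale, against 0.386 to 0.641 in the other pairs, and r over all genes was 0.988 against 0.912 to 0.977. The labels give acquisition year 2016 for A3 and 2015 for D4. Every other 5-FU library is from 2016 and every untreated library from 2015, so in KO HSCs treatment and year cannot be told apart.

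The 51 genes together held less of each transcriptome in KO HSCs and after 5-FU. Their share of all normalized counts was 0.447% to 0.500% in the 3 KO libraries after 5-FU and 0.583% to 0.686% in the 4 WT libraries after 5-FU. In untreated HSCs it was 0.822% to 0.869% in KO libraries and 0.870% to 1.08% in WT libraries. The 4 groups did not overlap, though untreated KO and WT came close. Tgtp1 with Tgtp2 and the 3 Ifitm genes carried much of the sum: the Tgtp pair held 0.0573% ± 0.0164 in KO and 0.0572% ± 0.0118 in WT after 5-FU, against 0.159% ± 0.0421 in untreated KO and 0.209% ± 0.0635 in untreated WT (SD). In bulk RNA, fewer cells expressing a gene and less RNA per cell cannot be told apart.

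**Figure D1:**
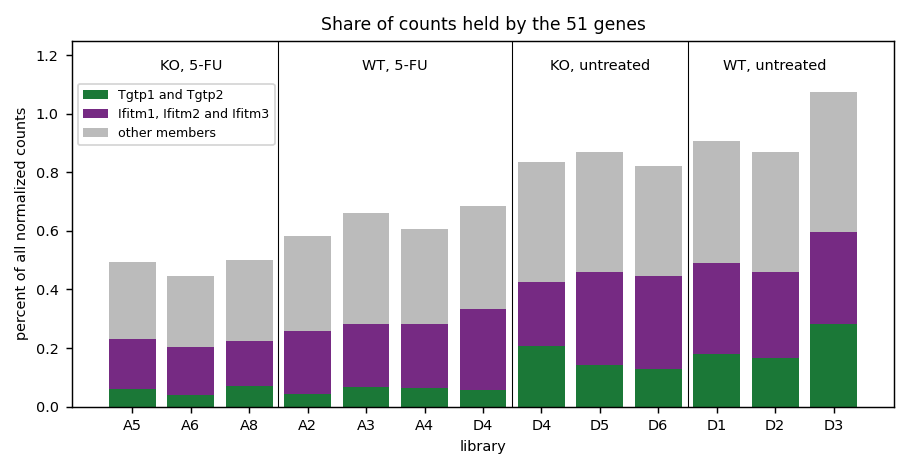
Share of all normalized counts held by the 51 genes in each library (percent, stacked bars from 0; green, Tgtp1 and Tgtp2; purple, Ifitm1, Ifitm2 and Ifitm3; grey, the other members). KO libraries after 5-FU lie between 0.447% and 0.500%, below the WT libraries after 5-FU at 0.583% to 0.686% and the untreated libraries at 0.822% or more.

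All 51 members passed the filter on low values, and 48 had reads in every library; Stat2, Ifit3 and Mx2 had libraries at 0. In KO against WT HSCs after 5-FU, 12 of the 51 members were called, where 10.9% of all genes were. Of these, 11 were lower (5.5% of all genes were called lower) and 1 was higher (5.36% of all genes). In WT HSCs, 5-FU against untreated gave 9 called members (6.68% of all genes), 7 lower (2.96% of all genes) and 2 higher (3.72%). In KO HSCs the same comparison gave 14 (5.92% of all genes), 13 lower (3.14% of all genes) and 1 higher (2.78%). Untreated KO against WT HSCs gave 0 called members (0.0311% of all genes), 0 with limma-voom on the recovered reads, and 9 at an unadjusted p below 0.05, where 10% of all genes reached that. The genotype by 5-FU interaction, which tests whether the 5-FU difference is unequal in KO and WT, called 2 members (2.84% of all genes), both with a negative value (1.8%). In all, 21 members were called in at least 1 comparison and 30 in none.

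The median log2 difference over the 51 members lay below 0 in each comparison. It was -0.39 in KO against WT after 5-FU (43 of 51 members below 0, beside 51.6% of all genes), -0.24 for 5-FU in WT (38 of 51, beside 50.3%) and -0.40 for 5-FU in KO (43 of 51, beside 51.3%). In untreated KO against WT HSCs it was -0.16 (37 of 51, beside 49.6%). The medians over all genes tested lay between -0.016 and 0.002 in these comparisons. Members whose libraries did not overlap between the groups numbered 17 lower and 3 higher in KO against WT after 5-FU (13.8% and 13.2% of all genes), 11 lower and 2 higher for 5-FU in WT (7.92% and 8.8%), 23 lower and 2 higher for 5-FU in KO (14.6% and 14.2%) and 7 lower and 2 higher in untreated KO against WT (5.67% and 5.88%). The comparisons share libraries and are not independent of each other. The count in KO against WT after 5-FU fell to 7 with A3 and D4 averaged, to 7 without D4, which leaves libraries of 2016 alone, to 7 without WT A3, to 6 without KO A5 or KO A8 and to 5 without KO A6. For 5-FU in WT it fell to 5 without WT D4 or KO A5 and to 4 without untreated WT D3, and for 5-FU in KO to 6 without KO A5, 7 without KO A6 and 8 without untreated KO D4 or D6. With acquisition year as a term, the 5-FU counts became 3 in WT and 0 in KO (7 of all genes).

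**Figure D2:**
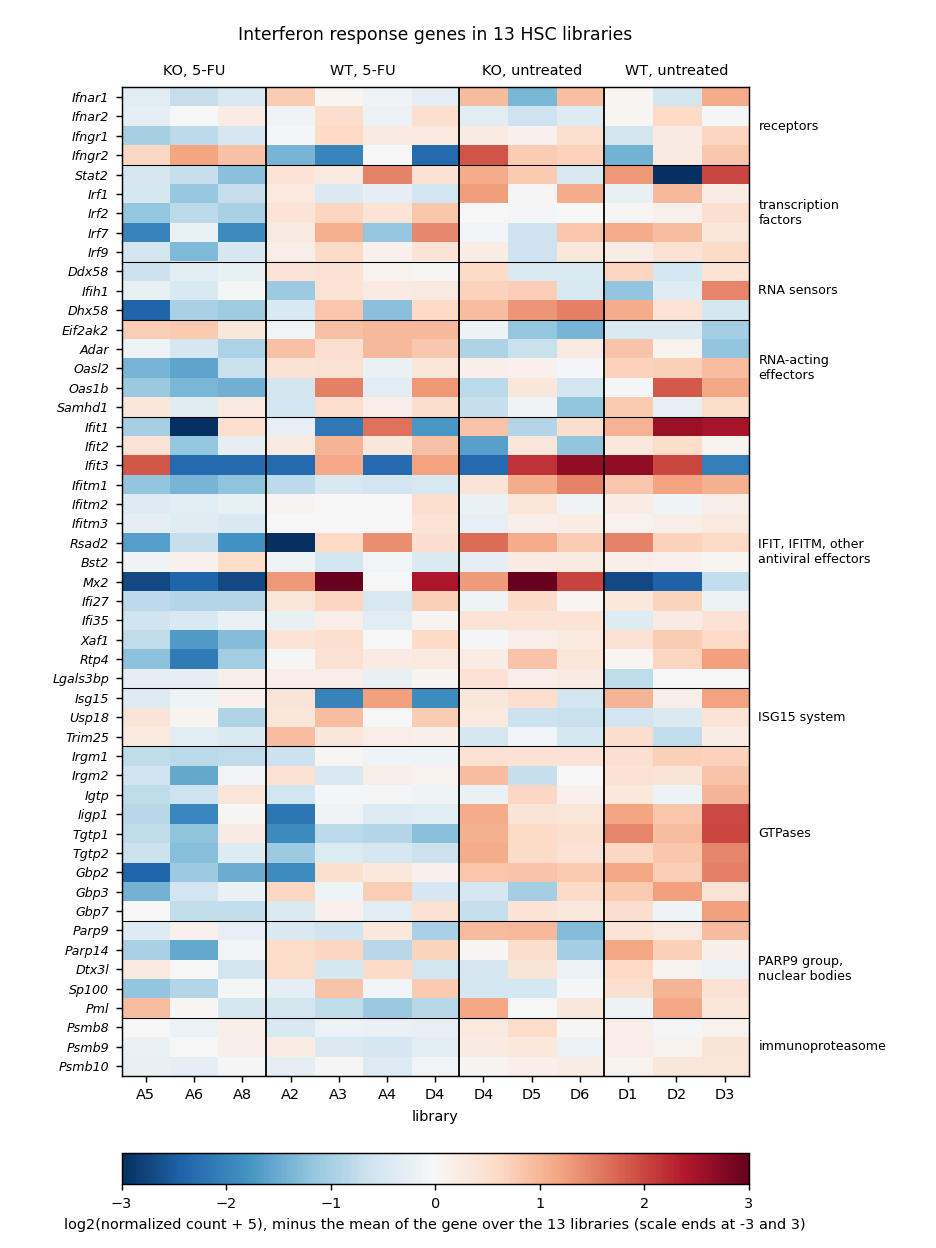
Levels of the 51 genes (rows, grouped by role) in the 13 libraries (columns), as log2 of the normalized count plus 5 minus the mean of the gene over all libraries; red is above and blue below that mean. The KO libraries after 5-FU are blue in most rows of the transcription factors and antiviral effectors, and Ifngr2 is red there; both 5-FU groups are blue for Ifitm1 and Tgtp2.

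The interferon gamma receptor chains went in opposite directions. Ifngr1, the ligand-binding chain (chr10:19591949-19610229, mm10), had 1650.04, 1914 and 2315 normalized counts in KO HSCs after 5-FU, against 3160.3, 5037, 4026 and 4065 in WT HSCs after 5-FU. It had 3921, 3591 and 4593 in untreated KO HSCs and 2252, 3899.6 and 5214 in untreated WT HSCs. The KO libraries after 5-FU were below all WT libraries after 5-FU and all untreated KO libraries. Ifngr1 was lower in KO than in WT after 5-FU (log2 difference -0.92, SE 0.214, limma adjusted p = 0.0105) and lower after 5-FU in KO HSCs (-0.92, SE 0.229, adjusted p = 0.0236), whereas 5-FU in WT gave a log2 difference of 0.15. Ifngr2, the signalling chain that carries JAK2, had 304, 456 and 368 normalized counts in KO HSCs after 5-FU and 71.7, 46.4, 198 and 35.2 in WT HSCs after 5-FU. Untreated, it had 743, 340.1 and 320.5 in KO HSCs and 70.5, 239.6 and 352 in WT HSCs. All KO libraries after 5-FU exceeded all WT libraries after 5-FU (mean 4.28-fold, log2 difference 0.96, SE 0.273, limma adjusted p = 0.0329), while the untreated groups overlapped.

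The call of Ifngr1 between genotypes missed the threshold without KO A5 (-0.82, adjusted p = 0.0625) and with limma-voom (adjusted p = 0.0549), and its call in KO HSCs held in 9 of the 13 fits without a library. That of Ifngr2 missed it without A5, A6 or A8 of KO or without A3 or D4 of WT (log2 differences of 0.86 to 1.12 over all libraries left out, adjusted p up to 0.133). The type I receptor genes were called in no comparison. Ifnar1 averaged 288 ± 36.5 in KO and 459 ± 159 in WT after 5-FU, and Ifnar2 1101 ± 193 in KO and 1287 ± 336 in WT (SD, n = 3 and 4).

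Among the transcription factors, Irf2 separated the genotypes after 5-FU with the smallest p of all members. IRF2 competes with IRF1 for the same DNA element and is known in mice to restrain type I interferon signalling in HSCs. Irf2 (chr8:46739732-46847458) had 656, 857 and 753 normalized counts in KO HSCs after 5-FU, against 1978, 2319, 1981 and 2628 in WT HSCs after 5-FU. It had 1494, 1453 and 1472 in untreated KO HSCs and 1515, 1612 and 2104 in untreated WT HSCs. The KO libraries after 5-FU were the 3 lowest of all 13, and the mean was 2.95-fold lower than in WT after 5-FU (log2 difference -1.22, SE 0.158, limma adjusted p = 0.000121). Irf2 was lower after 5-FU in KO HSCs (-0.73, SE 0.169, adjusted p = 0.0163) and not called in WT HSCs (0.30). The difference between those responses was called (interaction -1.03, SE 0.231, limma adjusted p = 0.0255). The interaction call did not hold with A3 and D4 averaged, with year as a term (-0.96, adjusted p = 0.0585) or without any of KO A5, KO A6, WT A3, WT D4, untreated KO D4 or untreated KO D6, where adjusted p ran up to 0.0761. The call of Irf2 in KO HSCs held in 10 of the 13 fits without a library.

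Irf9, the DNA-binding part of the type I interferon complex, had 857, 503 and 886 normalized counts in KO HSCs after 5-FU, against 1421, 1885, 1389 and 1685 in WT HSCs after 5-FU. Untreated libraries had 1471, 814 and 1571 in KO and 1466, 1706 and 1877 in WT. Irf9 was 2.13-fold lower in KO after 5-FU by the means (log2 difference -0.84, SE 0.202, limma adjusted p = 0.0131), and missed the threshold without KO A6 (-0.66, adjusted p = 0.0936). Irf1, an activator induced by interferon gamma, had 716, 466 and 623 in KO HSCs after 5-FU, against 2464, 1049.8 and 2235 in untreated KO HSCs. All 3 were below the untreated libraries, and Irf1 was lower after 5-FU in KO (log2 difference -1.20, SE 0.28, limma adjusted p = 0.0169). In WT HSCs it had 1256, 758, 837 and 692 after 5-FU and 877, 2030.2 and 1190.4 untreated, which overlap. Irf1 in KO missed the threshold without KO A6, untreated KO D4 or untreated KO D6 (log2 differences of -1.52 to -1.02). Stat2 and Irf7 were called in no comparison. Irf7, which amplifies type I interferon production, averaged 73.9 ± 60.6 in KO and 269 ± 169 in WT after 5-FU.

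The RNA sensors detect viral RNA in the cytosol. Of the 3, Dhx58 alone was called in any comparison. Dhx58, which encodes LGP2, had 52.4, 149.8 and 142 normalized counts in KO HSCs after 5-FU, against 575, 754 and 862 in untreated KO HSCs. The groups were far apart (log2 difference -1.39, SE 0.299, limma adjusted p = 0.0105), though the call was lost without KO A5 and with limma-voom (adjusted p = 0.0837). In WT HSCs it had 216, 537, 124 and 455 after 5-FU and 656, 398 and 205 untreated, which overlap. Ddx58 (RIG-I) averaged 397 ± 56.7 in KO and 622 ± 87.7 in WT after 5-FU, and Ifih1 (MDA5) 524 ± 77.6 in KO and 642 ± 241 in WT; neither was called.

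The effectors that act on RNA held members called in either direction. Oasl2, an OAS-like protein, had 403, 350.2 and 669 normalized counts in KO HSCs after 5-FU, against 1431, 1472, 927 and 1368 in WT HSCs after 5-FU. It had 1191, 1157 and 1032 in untreated KO HSCs and 1710.4, 1756 and 2041 in untreated WT HSCs. KO was below WT in both conditions without overlap. The difference was called after 5-FU (log2 difference -1.03, SE 0.184, limma adjusted p = 0.00154) and had an adjusted p of 0.336 untreated (-0.56, SE 0.196). Oasl2 was also lower after 5-FU in KO (-0.88, SE 0.196, adjusted p = 0.0127), a call lost without KO A5, KO A6 or untreated KO D4 (log2 differences of -1.05 to -0.77).

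Adar, the adenosine deaminase that edits double-stranded RNA, had 449, 342 and 254 normalized counts in KO HSCs after 5-FU and 911, 701, 978 and 868 in WT HSCs after 5-FU. Untreated, it had 257, 307 and 591 in KO and 898, 531 and 214 in WT. It was lower in KO after 5-FU (log2 difference -0.84, SE 0.262, limma adjusted p = 0.0485), a call that held in 3 of the 13 fits without a library (adjusted p up to 0.179, without KO A8). Of its exon bases, 16.8% overlap Chrnb2 on the other strand, and whether the counting used strand is not given in the sources used here.

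Eif2ak2 (PKR), the kinase that halts translation on double-stranded RNA, went the other way and was higher after 5-FU in both genotypes. It had 662, 692 and 501 normalized counts in KO HSCs after 5-FU, against 356, 174 and 148 in untreated KO HSCs. WT HSCs had 374, 739, 778 and 786 after 5-FU, against 291, 292 and 192 untreated. The log2 differences were 0.84 in KO (SE 0.241, limma adjusted p = 0.0485) and 0.78 in WT (SE 0.226, adjusted p = 0.0471). The KO call held in 4 and the WT call in 3 of the 13 fits without a library. Oas1b, a polymorphic pseudogene in the annotation, and Samhd1, which depletes nucleotides, were called in no comparison.

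The antiviral effectors held 6 of the 11 members lower in KO than in WT after 5-FU: Rtp4, Xaf1, Ifi27, Ifitm1, Ifitm3 and Mx2. Rtp4, a receptor-transporting protein induced by type I interferon, had 650.3, 345 and 743 normalized counts in KO HSCs after 5-FU, against 1574, 2083, 1809.7 and 1858 in WT HSCs after 5-FU. It had 1783, 2749.6 and 1979 in untreated KO HSCs and 1587, 2403 and 3572 in untreated WT HSCs. The KO libraries after 5-FU were the 3 lowest of all 13 (3.16-fold below WT after 5-FU by the means, log2 difference -1.27, SE 0.227, limma adjusted p = 0.00163). Rtp4 was also lower after 5-FU in KO (-1.46, SE 0.243, adjusted p = 0.00221) and not called in WT (-0.34), and the difference between those responses had an adjusted p of 0.0825.

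Xaf1, a pro-apoptotic interferon target, had 270.1, 138 and 183 normalized counts in KO HSCs after 5-FU, against 613, 659, 468 and 704 in WT HSCs after 5-FU. Untreated libraries had 440.3, 527 and 567 in KO and 636, 786 and 696 in WT. KO lay below WT in both conditions without overlap, and the difference was called after 5-FU (3.10-fold by the means, log2 difference -0.90, SE 0.188, limma adjusted p = 0.00504). Xaf1 was lower after 5-FU in KO as well (-0.74, SE 0.201, adjusted p = 0.0374), which held in 5 of the 13 fits without a library. Ifi27 had 1182, 1118 and 1117 in KO HSCs after 5-FU, against 2649, 3197, 1471 and 3364 in WT HSCs after 5-FU. It had 1879, 3058 and 2119.7 in untreated KO HSCs and 2563, 3269 and 1865 in untreated WT HSCs. The KO libraries after 5-FU were alike and below every other library (log2 difference -0.96, SE 0.233, limma adjusted p = 0.0135); the call was lost without KO A6 (-0.95, adjusted p = 0.0556), without KO A8 (-0.95, adjusted p = 0.0508) and with limma-voom (adjusted p = 0.062).

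**Figure D3:**
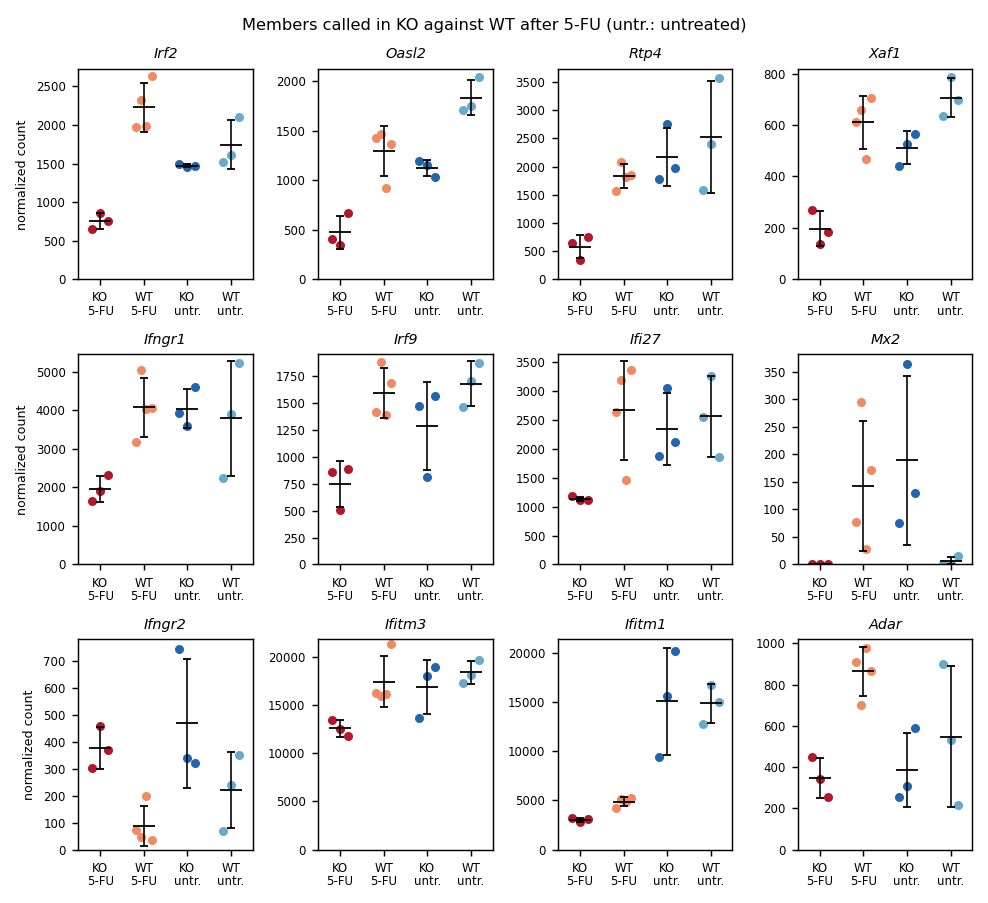
Normalized counts (linear axes from 0) of the 12 members called in KO against WT HSCs after 5-FU, by p; points are libraries, black lines the mean and SD (n = 3, 4, 3 and 3, SD bars cut at 0). In 11 panels the KO libraries after 5-FU lie below the WT libraries after 5-FU, and for Ifngr2 they lie higher; for Irf2 the 3 KO libraries lie between 656 and 857.

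The Ifitm genes encode membrane proteins that block viral entry, and they were the most abundant members per length. In untreated WT HSCs, Ifitm3 averaged 27155 normalized counts per kb of exon, against 9116 for Tgtp2 and 56.0 for Isg15. Ifitm1 fell strongly after 5-FU in both genotypes. It had 3171, 2760.4 and 3123 normalized counts in KO HSCs after 5-FU, against 9386, 15587 and 20203 in untreated KO HSCs. In WT HSCs it had 4212, 5154, 4856 and 5205 after 5-FU, against 12779, 16749 and 14996 untreated. The 5-FU means were 4.99-fold lower in KO (log2 difference -2.12, SE 0.203, limma adjusted p = 4.4e-05) and 3.06-fold lower in WT (-1.53, SE 0.19, adjusted p = 0.000115). Ifitm1 was also lower in KO than in WT after 5-FU (-0.62, SE 0.19, adjusted p = 0.0453), a call that held in 5 of the 13 fits without a library. Its neighbours in the same 55.9 kb of chromosome 7 were not called for 5-FU in either genotype. Ifitm3 had 13442, 12538 and 11768 in KO HSCs after 5-FU and 16302, 15919, 16147 and 21389 in WT HSCs after 5-FU. It had 13692, 17996 and 19012 in untreated KO HSCs and 17334, 18189 and 19711 in untreated WT HSCs. Ifitm3 was called in KO against WT after 5-FU (-0.45, SE 0.135, adjusted p = 0.0414), in 7 of the 13 fits without a library and with a highest adjusted p of 0.145. Ifitm2 was called in no comparison, and 48.5% of its 50-base windows occur in other genes, so its reads may be shared with them.

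Mx2 crossed over between the groups. Mx proteins are dynamin-like antiviral GTPases, and the annotation lists Mx2 as a polymorphic pseudogene. It had 0, 1.18 and 0 normalized counts in KO HSCs after 5-FU, where 3 reads would be 3.54 to 4.03, against 76.4, 294, 27.6 and 171 in WT HSCs after 5-FU. In untreated HSCs the order was turned round, with 74.6, 364 and 129 in KO and 0, 1.16 and 14.8 in WT. The groups did not overlap in any of the 4 comparisons. The log2 differences on the compressed scale were -0.96 in KO against WT after 5-FU (SE 0.254, limma adjusted p = 0.0221), 0.88 for 5-FU in WT (SE 0.254, adjusted p = 0.047) and -1.15 for 5-FU in KO (SE 0.272, adjusted p = 0.0187). The untreated difference of 1.06 (SE 0.272) had an adjusted p of 0.175, the smallest p of the members there. The interaction of -2.02 (SE 0.372, adjusted p = 0.00945) was called in each of the 9 other settings and without each library. The single comparisons held between genotypes after 5-FU in 8, for 5-FU in WT in 4 and for 5-FU in KO in 9 of the 13 fits without a library.

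Of the Ifit genes, which encode proteins that bind viral RNA, Ifit1 was called in 1 comparison. It had 162, 39.1, 599 and 53.8 normalized counts in WT HSCs after 5-FU, against 401, 1185 and 1091 in untreated WT HSCs. A4 after 5-FU exceeded untreated D1, so the groups overlapped (log2 difference -1.35, SE 0.39, limma adjusted p = 0.0469), and the call held in 5 of the 13 fits without a library. In KO HSCs Ifit1 had 94.1, 10.6 and 276 after 5-FU and 351, 102 and 280.3 untreated. Ifit2, Ifit3, Rsad2, Bst2, Ifi35 and Lgals3bp were called in no comparison; Rsad2 (viperin) averaged 95.8 ± 45.9 in KO and 345 ± 265 in WT after 5-FU (SD, n = 3 and 4).

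The interferon-inducible GTPases act on the membranes of vacuoles that hold pathogens, and Irgm1 is known in mice to be needed for HSC maintenance. Several of them were lower after 5-FU in both genotypes. Of the 9 GTPase genes, 5 fell after 5-FU in WT HSCs (Tgtp1, Tgtp2, Irgm1, Iigp1 and Gbp2) and 4 in KO HSCs (Tgtp1, Tgtp2, Irgm1 and Gbp2), where 2.96% of all genes were called lower in WT and 3.14% in KO. All 9 fitted differences were below 0 in both, beside 50.3% of all genes in WT and 51.3% in KO. Between the genotypes, 0 of the 9 were called untreated or after 5-FU with limma, and limma-voom called 0 in both. An unadjusted p below 0.05 was reached by 2 in each (10% and 24.8% of all genes). After 5-FU, Gbp2 was called lower in KO with a filter of 50 normalized counts. Without WT A2, Gbp2 and Irgm1 were both called lower in KO. Gbp2 averaged 330 in KO and 981 in WT after 5-FU. Several of these genes are neighbours: Irgm1, Tgtp1 and Tgtp2 lie within 202 kb of chromosome 11, Igtp and Irgm2 within 23.2 kb further along it, and Gbp2, Gbp3 and Gbp7 within 108 kb of chromosome 3.

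The sequences before their starts are shown for Tgtp1 and Tgtp2, which were lower after 5-FU in both genotypes, and for Igtp and Irgm2, which were called in no comparison but hold the same motif arrangement; Irgm1 and Gbp2, also lower in both genotypes, are shown without it. Exact matches on either strand were sought for the core of the interferon-stimulated response element, which is GAAA and again GAAA with any 2 bases between them, and for TTCNNNGAA, the core of the gamma-activated site, from 250 bases before to 50 after each gene start (RefSeq, GRCm38.p6). Of the 51 members, 42 had such a window. The paired GAAA motif was found in 20 of them (47.6%, against 3.99% of 27025 genes), TTCNNNGAA in 17 (40.5%, against 9.55%) and both in 9 (21.4%, against 0.54%). The motifs can share letters, as in Bst2 and Ifitm3, where their matches overlap. In Tgtp1, Tgtp2, Igtp and Irgm2 TTCNNNGAA is followed, after a gap of 2 bases, by the paired GAAA motif, an arrangement held by 5 of the 27025 genes (0.0185%); this spacing was chosen after the matches were seen. The stretches below are the 120 bases before each gene start, on the strand of the gene, with motif matches in capitals.
Tgtp1 (chr11:48992247-48992366, minus strand): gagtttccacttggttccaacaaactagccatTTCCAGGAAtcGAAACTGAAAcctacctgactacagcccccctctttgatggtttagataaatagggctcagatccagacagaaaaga
Tgtp2 (chr11:49064213-49064332, minus strand): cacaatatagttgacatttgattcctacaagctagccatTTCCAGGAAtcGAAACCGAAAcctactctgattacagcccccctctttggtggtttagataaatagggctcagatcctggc
Igtp (chr11:58199436-58199555, plus strand): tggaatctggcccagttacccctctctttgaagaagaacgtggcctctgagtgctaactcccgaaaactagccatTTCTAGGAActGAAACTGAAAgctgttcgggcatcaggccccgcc
Irgm2 (chr11:58214857-58214976, plus strand): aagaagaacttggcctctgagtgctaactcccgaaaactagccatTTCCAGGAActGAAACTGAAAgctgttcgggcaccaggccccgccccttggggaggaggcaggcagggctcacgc
Irgm1 (chr11:48871421-48871540, minus strand): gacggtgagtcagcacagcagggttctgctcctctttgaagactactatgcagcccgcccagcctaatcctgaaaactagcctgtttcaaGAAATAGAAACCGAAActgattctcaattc
Gbp2 (chr3:142620543-142620662, plus strand): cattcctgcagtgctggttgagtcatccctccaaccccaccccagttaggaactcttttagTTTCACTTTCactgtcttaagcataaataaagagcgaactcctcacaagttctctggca
Irgm1 and Gbp2 hold the paired GAAA motif alone in this window, in Gbp2 on the opposite strand. A match describes the letters and does not show that a factor binds there.

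Tgtp2 had 8445, 5462 and 10149 normalized counts in KO HSCs after 5-FU, against 28768, 19907 and 17829 in untreated KO HSCs. WT HSCs had 6209, 9961, 9183 and 8433 after 5-FU, against 20392, 23248 and 36706 untreated. No 5-FU library reached an untreated one, and the log2 differences were -1.43 in KO (SE 0.246, limma adjusted p = 0.0026) and -1.59 in WT (SE 0.23, adjusted p = 0.000481). Tgtp1 had 1279, 946 and 2598 in KO HSCs after 5-FU, against 4564, 3280.3 and 3056 untreated, and 576, 1247, 1177 and 913 in WT HSCs after 5-FU, against 6054, 4140.3 and 8806 untreated. Its differences were -1.09 in KO (SE 0.299, adjusted p = 0.0404) and -2.29 in WT (SE 0.28, adjusted p = 0.000113), the largest fall of any member in WT. The difference between those responses was 1.20 with an adjusted p of 0.133. Of the 50-base windows of Tgtp1, 79.4% occur in Tgtp2, so the split of reads between them is uncertain. Their sum averaged 9626 ± 3171 in KO and 9425 ± 1917 in WT after 5-FU, against 25801 ± 6622 in untreated KO and 33115 ± 10746 in untreated WT (SD).

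Irgm1 varied little among the KO libraries of each condition. It had 1248, 1211 and 1247 normalized counts in KO HSCs after 5-FU, against 2870.5, 2858 and 2865 in untreated KO HSCs. WT HSCs had 1352, 2170.1, 1957 and 1923 after 5-FU, against 2998, 3468 and 3431 untreated. The groups were apart in both genotypes (log2 difference -1.01 in KO, SE 0.16, limma adjusted p = 0.00156; -0.74 in WT, SE 0.149, adjusted p = 0.00648). Gbp2, a guanylate-binding protein, had 184, 458 and 349 in KO HSCs after 5-FU, against 1758, 1787 and 1693 untreated (5.29-fold lower by the means, log2 difference -1.69, SE 0.322, limma adjusted p = 0.00474). In WT HSCs it had 262, 1378, 1216 and 1070.03 after 5-FU, against 2205, 1625 and 2826 untreated. The WT difference was -1.04 (SE 0.301, limma adjusted p = 0.0482) and held in 3 of the 13 fits without a library. Without WT A2, which has the lowest count, it was -0.68 (adjusted p = 0.06). Iigp1 had 150.4, 655, 531 and 565 in WT HSCs after 5-FU, against 1618, 1262 and 2795 untreated, where it was called lower (-1.47, SE 0.312, adjusted p = 0.00879; lost without untreated D3). In KO HSCs it had 395, 178 and 723 after 5-FU and 1537, 929.6 and 917 untreated, where it was not called.

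The calls of Tgtp2, Irgm1 and Gbp2 in KO and of Tgtp1, Tgtp2 and Irgm1 in WT held without each library in turn. With acquisition year as a term, the KO calls were lost (Tgtp2 -1.41, Irgm1 -0.93, Gbp2 -1.41; adjusted p = 0.272, 0.272 and 0.501) and those of Tgtp1 and Tgtp2 in WT held. Tgtp1 in KO held in 7 of the 13 fits without a library (log2 differences of -1.43 to -0.84).

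**Figure D4:**
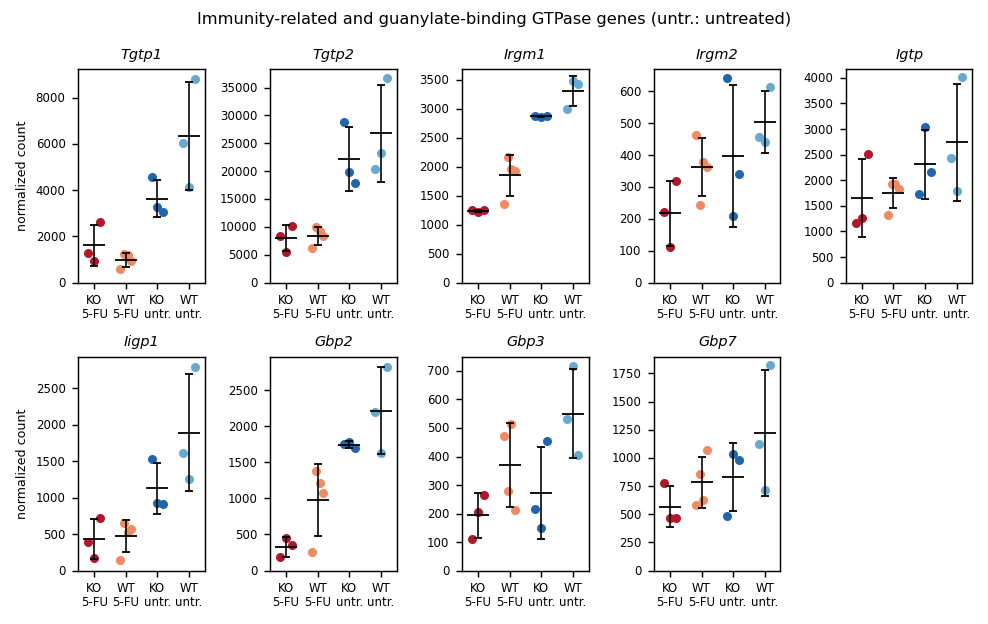
Normalized counts (linear axes from 0) of the 9 GTPase genes in the 4 groups; points are libraries, black lines the mean and SD. For Tgtp2 the 7 libraries after 5-FU lie between 5462 and 10149 and the 6 untreated libraries between 17829 and 36706, while KO and WT overlap within each condition.

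The remaining groups held no called member in any of the 5 comparisons: the ISG15 system (3 genes), the PARP9 group with nuclear body proteins (5 genes) and the immunoproteasome (3 genes). Isg15, a ubiquitin-like modifier and a classic interferon-induced gene, was low throughout, with 14.8 to 23.4 normalized counts in KO and 1.45 to 56.1 in WT after 5-FU, against 12.7 to 31.9 in untreated KO and 24.3 to 54.9 in untreated WT. Sp100, a nuclear body protein, had one of the 3 smallest p of the members between the untreated genotypes. It had 559, 566 and 785 normalized counts in untreated KO HSCs and 1130.3, 1664 and 1095 in untreated WT HSCs, which do not overlap (log2 difference -0.74, SE 0.26, limma adjusted p = 0.342). The 3 immunoproteasome subunits, which shape peptides for MHC class I, were not called: Psmb8 averaged 6824 ± 759 in KO and 5709.7 ± 474 in WT after 5-FU, against 8508 ± 1505 in untreated KO and 7247 ± 561 in untreated WT (SD). For 5-FU in WT, all 3 differences were below 0 (50.3% of all genes), and 2 subunits were lower without overlap (7.92%). Psmb10 was called lower there with quantile or upper-quartile scaling and without untreated WT D1, and Psmb9 without WT A2. Pml was called lower for 5-FU in WT without untreated WT D1, and Sp100 lower in KO than in WT after 5-FU without WT A2. Pml had 994, 537 and 360 normalized counts in KO and 354, 306, 240 and 292 in WT after 5-FU. Untreated WT HSCs had 469, 1181 and 664.

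Set side by side, the 5-FU differences in KO and WT compare groups that share no library. Both take their spread from 1 fit over all 13 libraries, so their calls are not independent. They had 7 members called in both, which is 7 of the 14 called in KO and 7 of the 9 called in WT. Over all genes tested, 180 were called in both, which is 23.7% of the 761 called in KO and 21% of the 858 called in WT. Of the 7, Gbp2, Ifitm1, Irgm1, Tgtp1 and Tgtp2 were lower in both, Eif2ak2 was higher in both and Mx2 was higher in WT and lower in KO. Irf2 and Mx2 were the members with a called interaction. Ifngr1 (-1.07, adjusted p = 0.0777) came next and passed without untreated WT D3 (-1.31, adjusted p = 0.0262), which carries its highest count. Rtp4 passed in that fit too, which called 4 members.

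**Figure D5:**
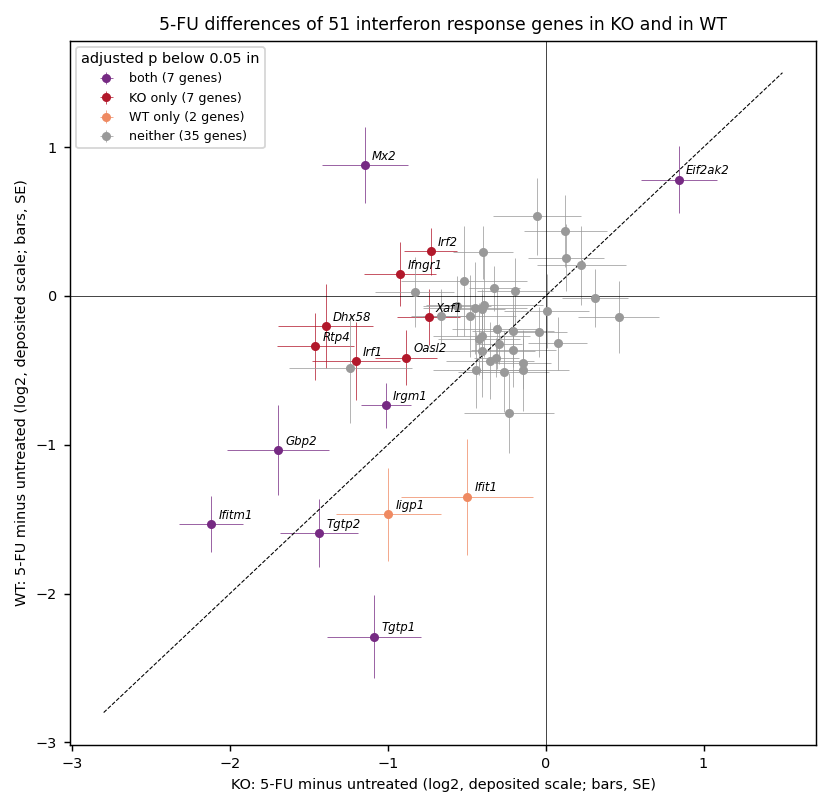
The log2 difference of 5-FU against untreated for each of the 51 genes in KO (x axis) and in WT (y axis), with SE bars; colours show in which genotype the adjusted p was below 0.05 and the dashed line marks equal differences. Most points lie left of and below 0, the GTPase genes and Ifitm1 lie low in both, and Mx2 stands apart at 0.88 in WT and -1.15 in KO.

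Of 98 other interferon pathway genes listed by function, 82 were tested. In KO against WT after 5-FU, 11 were called (13.4%, beside 10.9% of all genes). Of these, 10 were lower (12.2%, beside 5.5% of all genes) and 1 was higher (1.22%, beside 5.36%). Lowest in p was Ube2l6, the enzyme that passes ISG15 to its substrates, with 1817, 1731 and 2016 normalized counts in KO and 4179.7, 4712, 4927 and 4440.2 in WT after 5-FU (log2 difference -1.15, SE 0.152, limma adjusted p = 0.000151). Uba7, which activates ISG15 in the preceding step, was also lower (-0.92, adjusted p = 0.00518), although Isg15 itself was not called. The other genes with the smallest p were Oas1a (-0.93, adjusted p = 0.00198), Ifi44 (-1.17, adjusted p = 0.0113) and Ddx60 (-0.95, adjusted p = 0.0114). The gene called higher, named after its values were seen, was Irf8, a myeloid transcription factor, with 28.2, 249 and 58.5 in KO and 2.31, 0, 10.5 and 0 in WT after 5-FU (0.77, adjusted p = 0.017).

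In the 5-FU comparisons, 12 of the 82 were called in WT (10 lower, 2 higher; 6.68% of all genes, 2.96% lower) and 10 in KO (9 lower, 1 higher; 5.92% of all genes, 3.14% lower). The higher ones, again named after their values were seen, were Oas1a and Myd88 in WT and Irf8 in KO. Ly6a, which encodes the stem cell antigen Sca-1 and is interferon-inducible, averaged 793 in KO and 929 in WT after 5-FU, against 1841 in untreated KO and 2033 in untreated WT. It fell in both (-0.94, adjusted p = 0.00887 in KO; -0.86, adjusted p = 0.0092 in WT). In WT, Tmem173 (STING, -1.09), Casp1 (-0.66), Gbp8 (-1.31) and Mx1 (-0.72) had the next smallest p, with adjusted p of 0.0104 to 0.0276. In KO, Ube2l6 (-1.04), Ly6e (-0.77), Uba7 (-1.20) and Shisa5 (-1.28) had the smallest beside Ly6a. The interaction called 2 of the 82 (2.44%, beside 2.84% of all genes), both with a negative value (1.8% of all genes). They were Ube2l6 (-1.10, adjusted p = 0.0152) and Oas1a (-1.09, adjusted p = 0.0275). In untreated KO against WT HSCs 0 of the 82 were called with limma, and 8 had an unadjusted p below 0.05, beside 10% of all genes.

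Markers of other blood lineages also moved between the groups. Of 7 megakaryocyte markers, 6 were lower in KO than in WT after 5-FU (5.5% of all genes) and 6 were higher after 5-FU in WT (3.72%). Their summed normalized counts were 4166 to 7149.7 in KO and 29442 to 51839.5 in WT after 5-FU. Untreated, the sums were 3784 to 7393 in KO and 3477 to 5105 in WT. Of 6 erythroid markers tested, 3 were lower in KO than in WT after 5-FU, and of 7 neutrophil markers 3 were lower. The sums were 3614 to 4132 and 36.3 to 42.9 in KO, against 5421 to 7658 and 446 to 1267 in WT. The erythroid marker Hbb-bt was not called there and went the other way, with 2622, 3128 and 2215 in KO and 1911, 1369, 1347 and 1496 in WT. For 5-FU in WT, 3 erythroid and 2 neutrophil markers were called higher (3.72% of all genes). In KO, Hbb-bt was called higher after 5-FU. Of the 6 monocyte and macrophage markers tested, 0 were called between genotypes after 5-FU with limma and 0 reached an unadjusted p below 0.05, and their sum was 399.7 to 913 in KO and 111 to 747.5 in WT, against 307 to 491 in untreated KO and 933 to 1589.9 in untreated WT. Among them, C1qc was higher after 5-FU in KO and in the interaction, and Cd68 was lower after 5-FU in WT. Of 3 B and plasma cell markers tested, Cd79b was lower in KO than in WT after 5-FU; the sums were 563 to 799 in KO and 1162 to 1949.8 in WT after 5-FU, against 1200.3 to 1689 in untreated KO and 888 to 2326 in untreated WT. The single T cell, NK cell and plasmacytoid dendritic cell markers analysed had summed counts of at most 49.8, 161 and 42.8 in any library. Of the 10 HSC markers, 9 had reads in every library. After 5-FU, 4 were called lower in KO than in WT, among them Kit, Slamf1 and Meis1, and 1, Procr, was called higher (5.5% and 5.36% of all genes). The part of these lineage differences in the interferon gene results was not tested.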

How the data were processed

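The deposited table holds 13201 genes in 13 libraries of 100 sorted HSCs, made by Smart-seq2 per the labels' protocols. Its values are on a log2 scale; they have the form of variance-stabilized values, and the submitters' processing notes name Trimmomatic, Bowtie 1.1.1, DESeq2 and mm10 without giving their roles. The counting tool, the annotation and the strand setting were not stated there. Undoing the transformation gave whole reads within 0.1 for 100% of values in every library, from which normalized counts were taken; the fits used the deposited log2 values as they are. Read totals were 11416753 to 45384866, and their precision covers counting error only.

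Gene symbols came from GENCODE M21 (13054 of 13201 identifiers matched). The 12846 genes that reached 10 normalized counts in 3 or more libraries were fitted with limma 3.58.1 in R 4.3.3, with 1 mean per group over all 13 libraries, a mean-variance trend and Benjamini-Hochberg adjustment at 0.05. The script was tested on simulated data. Per-library values are given for members called in at least 1 comparison and for the 3 with the smallest p in each; of the other pathway genes, up to 5 called genes with the smallest p per comparison are named. Some genes of the lists are not reported here by name. Alternatives were other filters, pseudocounts of 1 and 5, quantile and upper-quartile scaling, limma-voom, fits on fewer libraries, A3 and D4 averaged, acquisition year as a term, and each library left out. No enrichment test was run. Levels per kb use the union of exons. Members, lists and tests were chosen with earlier results of these data known.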

Additional observations from a re-analysis of the deposited data

Results flagged for a closer look

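The 5-FU differences of Mx2 and Irf2 were called unequal in KO and WT HSCs. The KO 5-FU difference minus the WT one was -2.02 for Mx2 (limma adjusted p = 0.00945) and -1.03 for Irf2 (adjusted p = 0.0255), on the log2 scale. The Mx2 call held without each library. That of Irf2 held in 7 of the 13 fits without a library and was lost with A3 and D4 averaged or with year as a term. In KO HSCs treatment and year cannot be told apart.

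Within WT HSCs after 5-FU, the only group of 4, a library stood apart from the other 3 in 6 of the 51 members. The gap, as a share of the range of the group, was above the 95% critical value of Dixon's test. Chance gives about 1 in 20 where the 4 libraries are independent. In this group, A3 and D4 were more alike than any other pair within a group (r over all genes 0.988). The 6 members therefore cannot be judged by that chance rate. Genes outside the 51 were not tested for such gaps. Stat2 had 409.9 normalized counts in A4, against 174 to 195 in the others (gap 0.912 of the range). Parp14 had 281 in A4, against 752 to 814 (0.884). Eif2ak2 had 374 in A2, against 739 to 786 (0.886), and Igtp 1326 in A2, against 1839 to 1927 (0.853). Ifitm2 had 20018 in D4, against 13988 to 15002 (0.832), and Ifitm3 21389 in D4, against 15919 to 16302 (0.930). The causes were not tested.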

How the results depend on the processing

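Of the 37 calls of single members, 8 held under every alternative: Irf2, Oasl2, Rtp4 and Xaf1 in KO against WT after 5-FU, Ifitm1, Tgtp1 and Tgtp2 for 5-FU in WT, and Mx2 for the interaction. Of 849 values of these calls under alternatives, 644 kept their direction and side of the threshold, 205 missed the threshold and 0 changed sign. Members not called also passed in some fits and are included in the counts below. The median over members stayed below 0 under every alternative, at -0.62 to -0.31 in KO against WT after 5-FU, -0.43 to -0.08 for 5-FU in WT, -0.67 to -0.32 for 5-FU in KO and -0.27 to -0.10 untreated.

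The count of called members in KO against WT after 5-FU (12) became 5 with limma-voom, 7 with A3 and D4 averaged and 7 with year as a term, and ran from 5 to 15 with a library left out. All genes gave 1395, 869, 913 and 881 in these fits. For 5-FU in WT (9) it became 5 with only the libraries compared, 5 with A3 and D4 averaged and 3 with year, and 4 to 8 with a library left out (all genes 858, 415, 510 and 219). For 5-FU in KO (14) it became 6 with limma-voom and 0 with year, and 6 to 16 with a library left out (all genes 761, 408 and 7). The interaction (2) became 1 with A3 and D4 averaged and 1 with year, and 1 to 4 with a library left out. Untreated, it was 0 in every fit. The causes were not tested. Year coincides with treatment in every library except WT D4, so the year term rests on D4 against the other WT libraries after 5-FU. A difference between years and the wider standard errors of the 5-FU differences in that fit cannot be told apart. Fits without a library hold fewer samples. No paired analysis was possible because the groups of each simple comparison share no replicate names, and D4, the name shared in the interaction, stands for groups that differ in both genotype and treatment.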
